A study of Mus musculus with 18 samples.

Results

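The genes described here are 42 genes that encode the machinery of DNA replication and S phase, chosen by name for their known roles, with earlier results of these data known. All 42 were found among the 22303 protein-coding gene symbols in a table of transcript abundance from 18 RNA sequencing libraries. They were made from oligodendrocyte progenitor cells (OPCs) of the mouse, precursors that divide and then mature into the cells that form myelin. The cells were grown as clonal lines derived from primary neural stem cells. There were 3 control clones (D7, D3 and E8) and 3 clones null for Thap1 (3F, D6 and 7F), the gene of a zinc-finger transcription factor, and each clone gave 1 library at each of 3 stages. OPC libraries (day 0) came from cells in growth medium with PDGF-AA, a mitogen for these cells. DIV2 and DIV4 libraries came from cells kept for 2 and 4 days in oligodendrocyte differentiation medium with the thyroid hormone T3. How the null allele was made is not given in the sources used here, so a genotype difference is a difference between 3 clones and 3 other clones.

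Before S phase, origins are licensed when the origin recognition complex, Cdc6 and Cdt1 load the MCM helicase. In S phase, Cdc45 and the GINS complex activate that helicase, primase and polymerases copy the strands on the Pcna clamp, and other enzymes supply deoxynucleotides and package the new DNA. Many of these genes are E2F targets that are transcribed in cycling cells. OPCs divide in response to PDGF and leave the cell cycle as they differentiate, so the abundance of these transcripts in a culture reflects both how many cells cycle and how much RNA each cell holds. In bulk RNA, fewer cycling cells and less RNA per cell cannot be told apart.

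Promoter sequence was available from RefSeq for 34 of the 42 genes, as 39 windows of 250 bases before to 50 bases after a start site. E2F-type letters (TTTGGCGC, TTTCCCGC, TTTGCCGC or TTTCGCGC, on either strand) were present in 13 of these 39 windows (33.3%), against 2.26% of the 32851 windows of all genes and 4.10% of windows of the genes tested. The core letters bound by human THAP1 (TNNGGGCA, on either strand) were present in 6 of 39 windows (15.4%), against 13.9% of all windows. The windows with THAP1 letters belonged to Cdt1, Mcm10, Mcm2, Rpa2, Rrm1 and Tk1. Rrm1 is shown because it has been described as a target of human THAP1 in endothelial cells, and its window held the letters at 2 positions. Mcm2 is shown as a helicase subunit with THAP1 letters, and Mcm5 and Mcm6 as subunits with overlapping E2F matches. Each sequence below is the 250 bases upstream of the RefSeq start site (GRCm38.p6, 5′ to 3′ on the gene's strand), with the matched letters in capitals (THAP1 letters in Rrm1 and Mcm2, E2F letters in Mcm5 and Mcm6).
Rrm1 (chr7:102441445-102441694, plus strand): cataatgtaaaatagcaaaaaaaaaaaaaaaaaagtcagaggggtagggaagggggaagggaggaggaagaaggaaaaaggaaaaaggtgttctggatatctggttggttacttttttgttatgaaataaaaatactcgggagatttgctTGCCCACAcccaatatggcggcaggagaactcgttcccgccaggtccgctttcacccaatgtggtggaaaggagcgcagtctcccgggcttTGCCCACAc
Mcm2 (chr6:88898781-88899030, minus strand): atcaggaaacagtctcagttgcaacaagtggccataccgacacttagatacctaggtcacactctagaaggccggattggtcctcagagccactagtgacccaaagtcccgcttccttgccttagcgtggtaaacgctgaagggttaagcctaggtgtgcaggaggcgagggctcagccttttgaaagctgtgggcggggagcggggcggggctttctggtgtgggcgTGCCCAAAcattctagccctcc
Mcm5 (chr8:75109259-75109508, plus strand): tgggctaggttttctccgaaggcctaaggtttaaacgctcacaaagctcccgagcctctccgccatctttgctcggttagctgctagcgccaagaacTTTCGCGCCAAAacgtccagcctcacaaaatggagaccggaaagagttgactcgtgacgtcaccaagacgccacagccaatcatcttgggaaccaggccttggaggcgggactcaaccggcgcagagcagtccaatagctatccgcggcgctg
Mcm6 (chr1:128359706-128359955, minus strand): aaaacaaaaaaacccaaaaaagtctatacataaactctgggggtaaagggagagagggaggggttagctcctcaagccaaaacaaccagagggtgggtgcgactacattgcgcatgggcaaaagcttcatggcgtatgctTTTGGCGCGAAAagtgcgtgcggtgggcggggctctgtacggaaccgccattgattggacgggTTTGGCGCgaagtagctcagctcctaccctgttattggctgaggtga
A match describes letters in a window, not a bound site. CCAAT, the box bound by NF-Y, was present in 23 of the 39 windows (59.0%), against 37.4% of all windows.

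Values are given as rescaled TPM: the deposited TPM (length-corrected transcript abundance scaled to the same total in every library) of a gene's protein-coding transcripts, divided by a factor per library that sets the median protein-coding gene level. This was needed because protein-coding transcripts held only 5.05% to 9.0% of the deposited TPM in the 3 control OPC libraries and 19.1% to 38.8% in the other 15. Sequencing depth is not known for TPM, so no counting error can be given. Thap1, the targeted gene, had 4.41, 4.33 and 3.34 rescaled TPM in control OPCs (clones D7, D3 and E8, the order used throughout) and 0.485, 0.778 and 0.596 in null OPCs (3F, D6 and 7F). At DIV2 it had 1.94, 2.51 and 2.80 in control and 0.346, 0.644 and 0.691 in null clones. At DIV4 it had 3.82, 2.91 and 2.27 in control and 0.456, 0.757 and 0.197 in null clones, so that the genotypes did not overlap at any stage. Changes were tested with limma on log2(rescaled TPM + 1) across the 10408 genes with a mean of at least 1 rescaled TPM, and a gene was called at a Benjamini-Hochberg adjusted p under 0.05. Of the 42 genes, 39 were tested. The other 3 were Gins2 (mean 0.755), E2f1 (0.680) and Orc1 (0.444), while Gins3 (1.38) and Cdc6 (1.70) were the lowest that were tested. Counts given over all 42 genes include these 3, whereas the shares of all genes set beside them cover only the 10408 tested.

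The control D3 OPC library stood apart from the other 5 OPC libraries. Summed over the 42 genes, it held 149 rescaled TPM, against 839 in control D7, 745 in control E8, and 738, 791 and 578 in the null clones. It was the lowest OPC library for 41 of the 42 genes, Fen1 being the exception, and it lay within the range of the 12 DIV2 and DIV4 libraries for 30 of them. The share of all genes with either pattern was not computed, and a range of 12 libraries is wide. As a share of all protein-coding TPM, which does not use the rescaling, the 42 genes held 0.0534% in D3 OPC and 0.186% to 0.351% in the other OPC libraries. A list of 8 other cell cycle genes outside the 42 (among them Mki67, Top2a and Ccnb1) summed to 24.8 rescaled TPM in D3 OPC and to 297 to 392 in the others. These 8 genes are not limited to phases other than S. The 7 OPC markers did not move together in that library. Their sum was the highest (942, against 483 to 665), carried by Olig1 (493, against 158 to 263) and Gpr17 (133, against 17.8 to 62.2), while Olig2 (61.6) and Ptprz1 (35.8) were the lowest of the 6 OPC libraries and Cspg4 (11.7) was below control D7 and E8 (26.9 and 23.5). Olig1 and Gpr17 were not among the markers lower in every DIV2 than in every OPC library, and Gpr17 had 65.9 to 101 at DIV2. A high sum of this list is therefore not particular to the OPC stage. The 8 oligodendrocyte markers summed to 630 in D3 OPC, against 102 to 444, although below the 1863 to 11995 seen at DIV2 and DIV4. The 8 astrocyte markers summed to 155 in D3 OPC, against 58.4 to 114 in the other OPC libraries, with S100b the largest part (79.3). S100b, Gfap (5.95, against 0.131 to 1.58) and Aqp4 (0.371, against 0 to 0.113) were above the other 5 OPC libraries, and 0 of the 8 were below all 5. Gja1, a defining marker, stood at 0 in all 6 and under 1 in every library of the series. The 8 neuron markers summed to 103 in D3 OPC, against 79.6 to 138 in the other OPC libraries. Of them 3 (Rbfox3, Tubb3 and Dcx) were above the other 5 OPC libraries and 3 (Snap25, Syt1 and Gad1) below. Microglial markers summed to at most 4.59 and mesenchymal markers to at most 1.70 in any library, with 7 and 6 of their 8 genes under 1 in every library. The part of any of these differences in the results was not tested. The main counts and the named changes that rest on the OPC stage are given with and without this library.

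**Figure D1:**
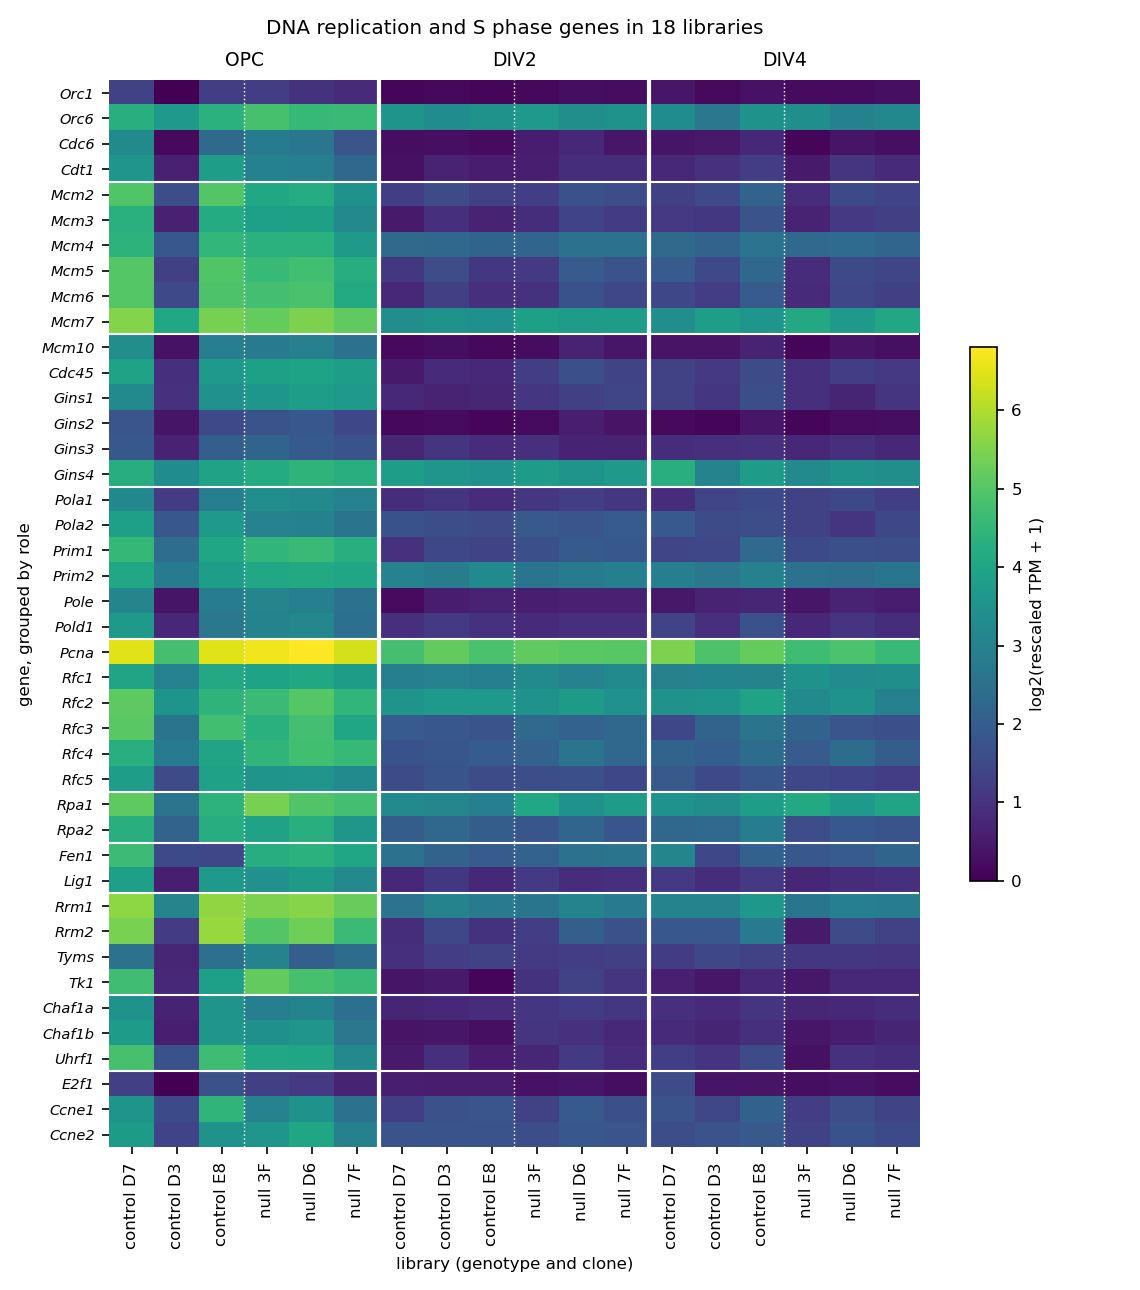
Level of the 42 genes (rows, grouped by role) in the 18 libraries (columns), as log2(rescaled TPM + 1). The OPC columns are bright except control D3, which resembles the DIV2 and DIV4 columns.

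**Figure D2:**
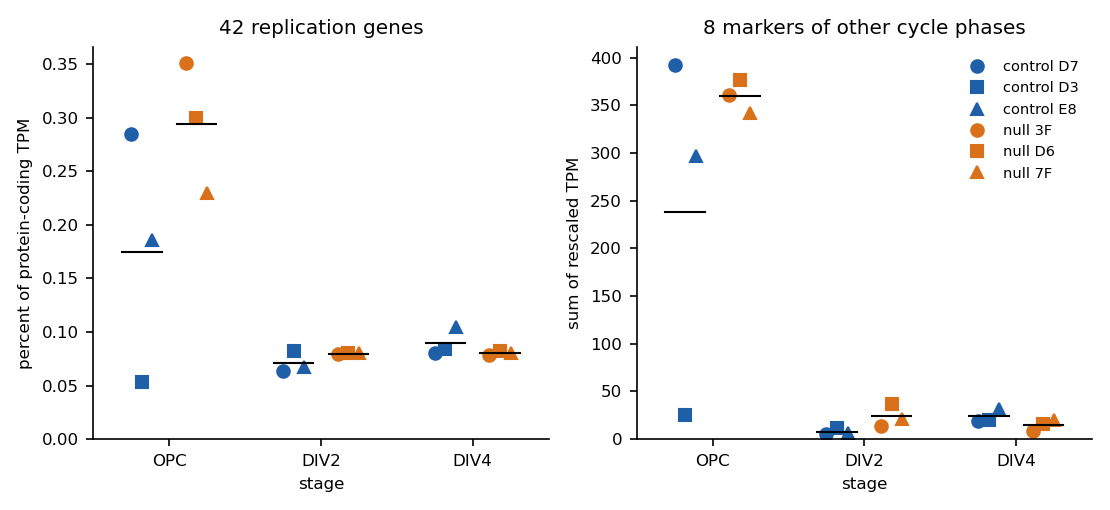
Left, the 42 genes as a percent of protein-coding TPM, and right, the summed rescaled TPM of 8 other cell cycle genes (titled markers of other cycle phases, though not limited to them), by stage. Each point is 1 library and each bar the mean of 3 clones. Control D3 OPC lies at 0.0534% and 24.8, and the other OPC libraries lie at or above 0.186% and 297.

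The first comparison asked how the replication genes changed when OPCs were moved to differentiation medium. They fell in both genotypes between OPC and DIV2. In the null clones 38 of 39 tested genes fell and none rose, where 15.6% of all genes tested were called lower and 17.7% higher. In the control clones 31 of 39 fell and none rose, where 18.7% of all genes were called lower and 21.3% higher. The median change was -1.97 in null and -1.65 in control clones, where the median of all genes tested was 0.01 and 0.03. Without the D3 OPC library, 37 of 39 fell in control clones, with a median of -2.41 (background 21.3%), and 39 of 39 fell in null clones (background 17.5%). All 3 null clones were lower at DIV2 than at OPC for each of the 42 genes (34.0% of the genes tested; 37.2% were higher in all 3). Control D7 was lower for 42 and E8 for 41 (both for 41, against 36.7% of all genes lower and 43.4% higher in both), whereas D3 was lower for 18 and higher for 24. All 3 control clones were lower for 18 genes (27.7% of all genes, with 31.8% higher in all 3). On deposited TPM, where the median of all genes shifted by 2.01 in control clones, 13 of the 39 genes rose and 2 fell (background 90.4% higher and 0.615% lower), and their median was 0.29. The marker lists moved in this step too: oligodendrocyte markers summed to 102 to 630 at OPC and 2898 to 5884 at DIV2, OPC markers to 483 to 942 and 226 to 503, and astrocyte markers to 58.4 to 155 and 116 to 279. Of these lists, 6 of 8 oligodendrocyte markers and 2 of 8 astrocyte markers (Aldh1l1 and S100b) were higher in every DIV2 than in every OPC library, and 4 of 7 OPC markers were lower. Their part in the fall of the replication genes was not tested.

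The licensing genes fell in both genotypes wherever they were tested. Where a pair of changes is given below, the control clones come before the null clones, and the control change without the D3 OPC library stands in brackets. Null changes in this step do not use that library and were the same without it. Orc6, a subunit of the origin recognition complex and the most abundant of this group, had 18.2, 11.6 and 19.5 rescaled TPM in control OPCs and 27.4, 22.8 and 23.6 in null OPCs. At DIV2 it had 10.6, 8.90 and 10.3 in control and 11.9, 9.36 and 10.1 in null clones. Each OPC library other than D3 was above all DIV2 libraries, and the log2 change was -0.65 ± 0.21 (SE) in control (-0.87) and -1.16 ± 0.21 in null clones (limma adjusted p = 0.0209 and 0.000629). Cdt1, which loads the helicase and is degraded once S phase begins, changed by -2.17 (-3.19) and -1.95 on the log2 scale, and Cdc6, the loading ATPase, by -1.68 (-2.56) and -1.86. Orc1, the largest subunit of the complex, was too low to test. It lay between 0.772 and 1.52 in the 5 OPC libraries other than D3, where it was listed at 0, and at or below 0.326 in all later libraries.

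All 6 subunits of the MCM helicase, Mcm2 to Mcm7, fell in both genotypes, with a median change of -2.40 in control (-3.56) and -2.44 in null clones. Mcm7 was the most abundant, with 45.3, 15.6 and 41.3 rescaled TPM in control OPCs and 35.8, 43.0 and 34.1 in null OPCs. At DIV2 it had 9.23, 10.2 and 9.76 in control and 13.6, 12.4 and 12.5 in null clones. Every OPC library was therefore above every DIV2 library, D3 included, and the change was -1.58 ± 0.28 in control (-2.05) and -1.48 ± 0.28 in null clones (adjusted p = 0.000542 and 0.00102). Because 29.3% of the 31-base words of Mcm7 also occur in other genes, most often Gm5487, its level is uncertain. Mcm6 changed most in the group, by -2.82 in control (-3.98) and -3.20 in null clones. It lay between 16.9 and 31.5 in the 5 OPC libraries other than D3, at 1.84 in D3, and between 0.683 and 2.88 at DIV2 and DIV4. Mcm4 changed least among the subunits in control clones with all libraries, by -1.32 (-2.18), and kept 3.46 to 5.02 rescaled TPM at DIV2 and DIV4.

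Among the genes that activate the helicase, Cdc45, Gins1 and Mcm10 fell in both genotypes and Gins3 fell in null clones. Cdc45, which joins the MCM ring and GINS in the active helicase, had 14.3, 0.923 and 11.8 rescaled TPM in control and 13.7, 14.4 and 12.8 in null OPCs. It changed by -2.15 ± 0.51 in control (-3.10) and -2.44 ± 0.51 in null clones (limma adjusted p = 0.00430 and 0.00216). Gins4, a GINS subunit, was the exception among the 39 genes in null clones. It had 17.9, 8.87 and 14.2 in control OPCs and 17.3, 20.5 and 18.7 in null OPCs. At DIV2 it still had 13.1, 10.7 and 9.94 in control and 12.4, 10.6 and 11.7 in null clones, and control D7 had 18.5 at DIV4. Its change was -0.22 ± 0.25 in control (-0.48) and -0.66 ± 0.25 in null clones (adjusted p = 0.533 and 0.0576), and it was called lower in null clones with the clone as a block or without the D3 OPC library. Gins2, untested, lay between 1.79 and 2.60 in OPC libraries other than D3 and at or below 0.475 afterwards.

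All 6 polymerase and primase genes fell in null clones, and 5 of 6 fell in control clones (6 without D3 OPC). Prim1, the catalytic primase subunit, had 22.2, 4.37 and 15.0 rescaled TPM in control OPCs and 21.5, 23.6 and 18.5 in null OPCs, and the largest change of the group, -2.38 in control (-3.0) and -2.65 in null clones. Its partner Prim2, the more abundant of the group over the 18 libraries but below Prim1 in 5 of the 6 OPC libraries, had 15.8, 6.0 and 12.9 rescaled TPM in control OPCs and 15.8, 16.7 and 14.9 in null OPCs. At DIV2 it had 7.07, 6.25 and 8.32 in control and 5.26, 6.02 and 6.69 in null clones, so that only D3 did not stand above the DIV2 range. Prim2 changed by -0.53 ± 0.23 in control and -1.27 ± 0.23 in null clones (limma adjusted p = 0.0813 and 0.000777). Without D3 its control change was -0.90 and passed the test. Pole and Pold1, which encode the catalytic subunits of polymerases epsilon and delta, changed by -1.65 (-2.52) and -1.37 (-2.18) in control and by -2.26 and -1.99 in null clones.

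Pcna, the sliding clamp, was the most abundant of the 42 genes, with 90.0, 26.8 and 88.4 rescaled TPM in control OPCs and 99.7, 111 and 81.9 in null OPCs. At DIV2 it had 26.8, 35.2 and 27.7 in control and 34.6, 32.3 and 32.1 in null clones. Only D3 OPC overlapped the later libraries, and the change was -0.99 ± 0.33 in control (-1.55) and -1.53 ± 0.33 in null clones (limma adjusted p = 0.0260 and 0.00251). It shares 38.0% of its 31-base words with other genes, most often Pcna-ps2, so its level is uncertain. Pcna made up 10.7% to 14.2% of the summed level of the 42 genes in OPC libraries other than D3 and 16.6% to 24.1% at DIV2 and DIV4. Of the 5 clamp loader subunits, all fell in null clones and 4 in control clones, the exception being Rfc2 (-0.75, adjusted p = 0.0502, and -1.17 and called without D3). Rfc1, the large subunit, changed by -0.73 (-1.07) and -0.75, and Rfc4 changed by -1.85 ± 0.28 (-2.30) and -2.24 ± 0.28. Rfc5 shares 13.5% of its words and is uncertain too.

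Rpa1 and Rpa2 encode subunits of the complex that coats single-stranded DNA. Rpa1 had 34.0, 5.16 and 20.0 rescaled TPM in control OPCs and 41.9, 30.1 and 26.4 in null OPCs, and at DIV2 8.44, 7.90 and 6.72 in control and 15.5, 10.3 and 12.3 in null clones. The null DIV2 libraries were all above the control ones. Rpa1 fell in null clones (-1.29 ± 0.42, limma adjusted p = 0.0284) and did not pass the test in control clones with all libraries (-0.93 ± 0.42, adjusted p = 0.0916). Without D3 it fell there too, by 1.65 on the log2 scale, and Rpa2 fell in both genotypes, changing by -1.45 (-2.14) and -1.97. Fen1, the flap endonuclease that trims Okazaki fragments, had 24.4, 1.90 and 1.72 in control OPCs and 17.8, 19.5 and 15.0 in null OPCs. Its DIV2 levels were 4.81, 3.48 and 2.93 in control and 3.44, 4.93 and 5.13 in null clones. Fen1 was the only member for which control E8 was lower than D3 at the OPC stage. Its change was -0.32 ± 0.62 in control (-0.83, not called) and -1.75 ± 0.62 in null clones (adjusted p = 0.706 and 0.0392). Lig1, the ligase that joins the fragments, fell in both, changing by -1.83 (-2.89) and -2.46.

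The genes of deoxynucleotide supply held some of the largest falls. Rrm1, the large subunit of ribonucleotide reductase, had 49.7, 7.57 and 50.2 rescaled TPM in control OPCs and 43.4, 46.9 and 36.6 in null OPCs. The DIV2 values were 5.01, 7.29 and 6.16 in control and 5.21, 7.39 and 6.02 in null clones. The genotypes overlapped at both stages, and the change was -1.99 ± 0.47 in control (-2.84) and -2.59 ± 0.47 in null clones (limma adjusted p = 0.00408 and 0.000777). Rrm2, the small subunit, whose level is uncertain because 14.1% of its words are shared, had 42, 1.28 and 52.6 in control OPCs and 30.6, 38.4 and 24.0 in null OPCs. It changed by -3.0 (-4.47) and -3.30. Tk1, the cytosolic thymidine kinase, changed by -2.78 ± 0.64 in control (-3.95) and -3.74 ± 0.64 in null clones (adjusted p = 0.00317 and 0.000498), the largest change of the 39 genes in null clones. Tyms, the thymidylate synthase, changed by -0.78 (-1.37) and -1.28 and was called in null clones, and in control clones without D3. Because 18.4% of its words are shared, its level is uncertain.

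All 3 chromatin genes fell in both genotypes. Uhrf1, which guides maintenance methylation to new DNA, had 27.6, 2.31 and 24.8 rescaled TPM in control OPCs and 15.8, 15.3 and 8.16 in null OPCs. By DIV2 it was at 0.402, 0.923 and 0.425 in control and 0.647, 1.21 and 0.836 in null clones. Every OPC library, D3 included, was above every DIV2 library, and the change was -3.11 ± 0.57 in control (-4.12), the largest of the 39 genes there with all libraries, and -2.85 ± 0.57 in null clones (limma adjusted p = 0.000702 and 0.00151). Its level is uncertain because 27.9% of its words are shared with other genes, most often Gm5648. Chaf1a and Chaf1b, subunits of the histone chaperone CAF-1, changed by -1.78 (-2.72) and -2.29 (-3.32) in control and by -1.71 and -2.29 in null clones. Of the G1/S regulators, Ccne1 and Ccne2 encode the E cyclins. Ccne2 had 12.2, 1.59 and 9.99 in control OPCs and 10.8, 15.2 and 6.87 in null OPCs, and between 2.13 and 2.62 in all DIV2 libraries. It changed by -1.10 ± 0.43 and -1.75 ± 0.43 (adjusted p = 0.0524 and 0.00550). Without D3 its control change was -1.83 and passed the test. Ccne1 changed by -1.59 (-2.41) and -1.37. E2f1, untested, lay between 0.603 and 2.21 in OPC libraries other than D3, and 1 later library, control D7 at DIV4, reached 2.02.

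The 8 genes not called in control clones were Gins3, Gins4, Rfc2, Prim2, Tyms, Fen1, Ccne2 and Rpa1. Without the D3 OPC library only Fen1 and Gins4 were not called there. With the clone as a replicate block, Ccne2, Prim2 and Rfc2 were called as well (34 of 39). The 13 genes with E2F letters in a promoter window, 12 of them tested, changed in null clones by -3.20 to -1.19 with a median of -2.10, and the 20 tested genes with a window but no such letters by -3.74 to -0.75 with a median of -1.91.

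**Figure D3:**
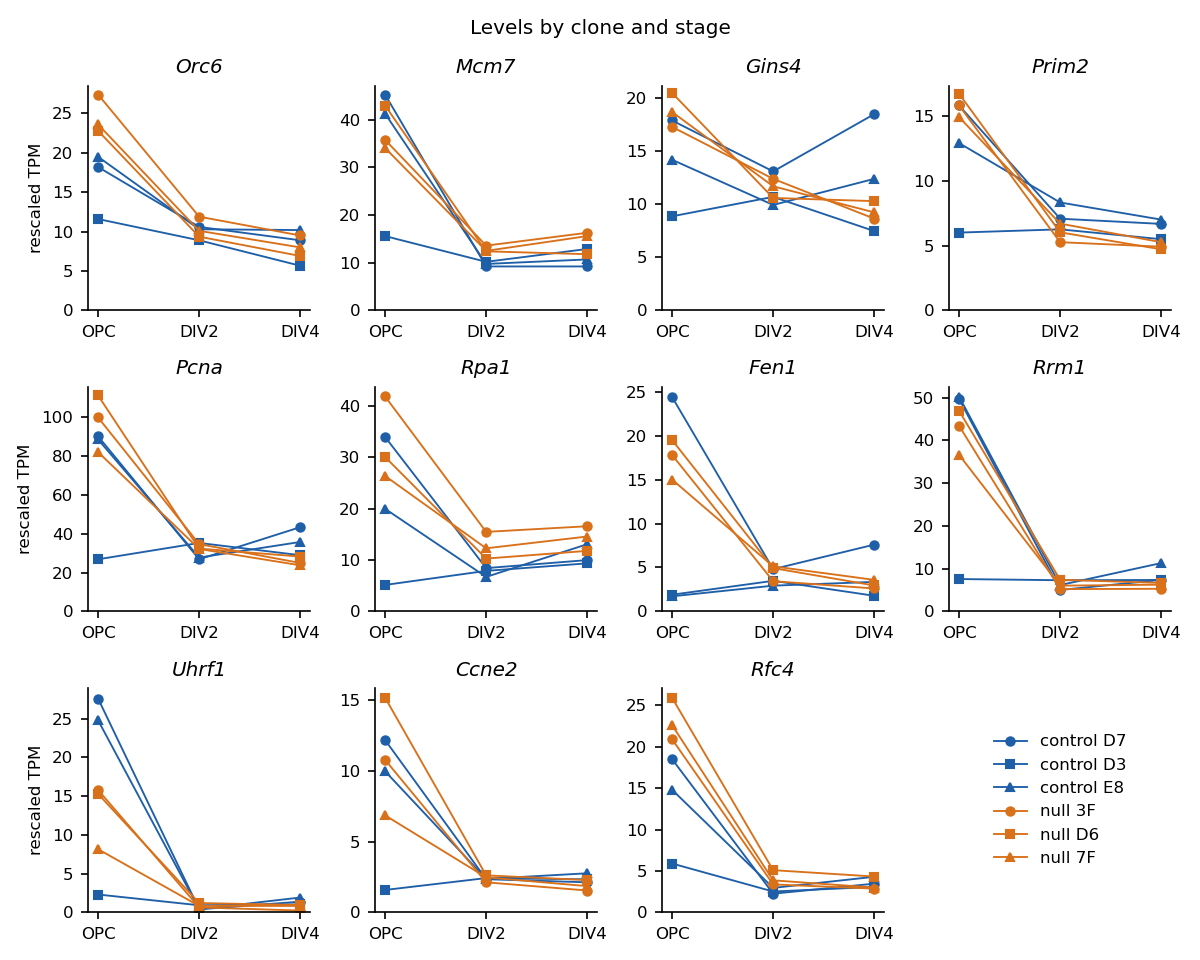
Rescaled TPM of the most abundant gene of each role and of Rfc4 by stage, with 1 line per clone (control blue, null orange). The levels drop from OPC to DIV2 in every clone except control D3 for most genes, while Fen1 is also low in control E8 OPCs and Gins4 drops least.

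A second list of 57 replication and G1/S genes outside the 42 was taken for comparison, of which 53 were tested. Between OPC and DIV2, 34 of them fell and 1 rose in null clones (background 15.6% and 17.7%), with a median of -0.97. In control clones 28 fell and 3 rose (background 18.7% and 21.3%), with a median of -0.77. Without the D3 OPC library 37 fell and 1 rose in null clones (background 17.5% and 19.9%), and 34 fell and 8 rose in control clones (background 21.3% and 25.5%), with a control median of -1.26. Ccna2, the S phase cyclin A2, changed by -3.27 in control (-4.35) and -3.55 in null clones. Dnmt1, the maintenance methyltransferase, changed by -1.63 (-2.33) and -1.35. The gene that rose in both genotypes was Rrm2b, the p53-inducible reductase subunit used outside S phase (1.0 ± 0.18 in control, 1.19 there without D3, and 0.77 ± 0.18 in null clones, limma adjusted p = 0.000583 and 0.00396). E2f5 rose in control clones (0.46, and 0.59 without D3) and fell in null clones (-0.51), but with all libraries no gene of this list was called for the difference between the genotypes in this step. Without the D3 OPC library 5 were, Cdc25a, Chek1 and Dnmt1 with a smaller fall in null clones (background 1.84%) and E2f5 and Orc3 in the other direction (background 1.6%).

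The next comparison asked whether null OPCs differed from control OPCs. The answer for these genes depended on the D3 library and on the scale. With all libraries, 1 of 39 genes was called, Rfc4, a clamp loader subunit, where 5.91% of all genes were called higher and 5.94% lower. Rfc4 had 18.5, 5.90 and 14.8 rescaled TPM in control and 20.9, 25.9 and 22.6 in null OPCs, without overlap. Its change was 0.90 ± 0.28 (limma adjusted p = 0.0499, and between 1.05e-05 and 0.266 over the other settings, with 8 of 21 settings calling it). With D3 OPC left out it was 0.45 ± 0.18 and was not called (adjusted p = 0.10). The median of the 39 changes was 0.58, against 0.04 over all genes, and 37 were above 0. Only Orc6, Gins1 and Rfc4 had every null OPC library above every control one, and no gene the reverse, where the background was 13.4% and 12.3%.

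Without the D3 OPC library, none of the 39 genes was called higher and 6 were called lower in null OPCs by limma, where 10.5% of all genes were called higher and 8.78% lower, and the median was -0.24. The 6, chosen for mention after their values were seen, were Mcm2, Uhrf1, Ccne1, Cdt1, Pola2 and Chaf1a. Mcm2 had 30.3 and 30.6 rescaled TPM in control D7 and E8 and 15.7, 17.5 and 10.1 in the null clones, a change of -1.06 ± 0.27, where it had been 0.05 ± 0.62 with D3 (2.13). Uhrf1 changed by -1.0 ± 0.27, Ccne1 by -0.98 ± 0.31 and Cdt1 by -0.96 ± 0.24. Pola2, the accessory subunit of polymerase alpha, had 13.3 and 11.5 in D7 and E8 and 7.08, 6.97 and 5.11 in the null clones, a change of -0.87 ± 0.16, and Chaf1a changed by -0.67 ± 0.16. For all 6, the limma adjusted p ranged from at most 0.00178 to at least 0.914 over the settings, and 5 settings called each of them, counting both directions. Every null library was below D7 and E8 for 14 genes (background 19.7%) and above both for 3 (background 24.9%), with the 14 including 5 of the 6 MCM subunits.

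The direction also moved with the scale. On TPM per protein-coding total, 13 of 39 genes were higher and 0 lower with all libraries (background 23.9% and 1.48%, median 0.89, all genes 0.35). Without D3, 7 were higher and 0 lower (background 35.3% and 1.7%, median 0.26, all genes 0.43), a smaller share than among all genes. On deposited TPM all 39 were higher, where 89.2% of all genes were (median 2.18, all genes 1.51). Without D3 all 39 were again higher, where 88.6% of all genes were, and their median of 1.76 lay near the 1.64 of all genes. A measure that needs no scale between libraries is the share of each gene in the sum of the 42. On it, 5 of the 42 genes had every null OPC library above every control one (Cdc45, Gins1, Gins2, Pola1 and Tk1) and 2 had the reverse (Pola2 and Rfc3). Without D3, 11 were above and 14 below, the 14 including Mcm2, Mcm3, Mcm5 and Mcm6. These counts have no background over all genes, and shares of 1 sum cannot all move the same way, so no genotype difference is read from them. Tk1, chosen after its values were seen, held 3.01%, 0.474% and 1.79% in control and 4.73%, 3.5% and 3.97% in null OPCs. Rrm1, the described human THAP1 target, held 5.92%, 5.07% and 6.73% in control and 5.89%, 5.93% and 6.33% in null OPCs, which overlapped. Its change was 0.62 ± 0.47 with all libraries and -0.24 ± 0.19 without D3 (adjusted p = 0.410 and 0.412).

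**Figure D4:**
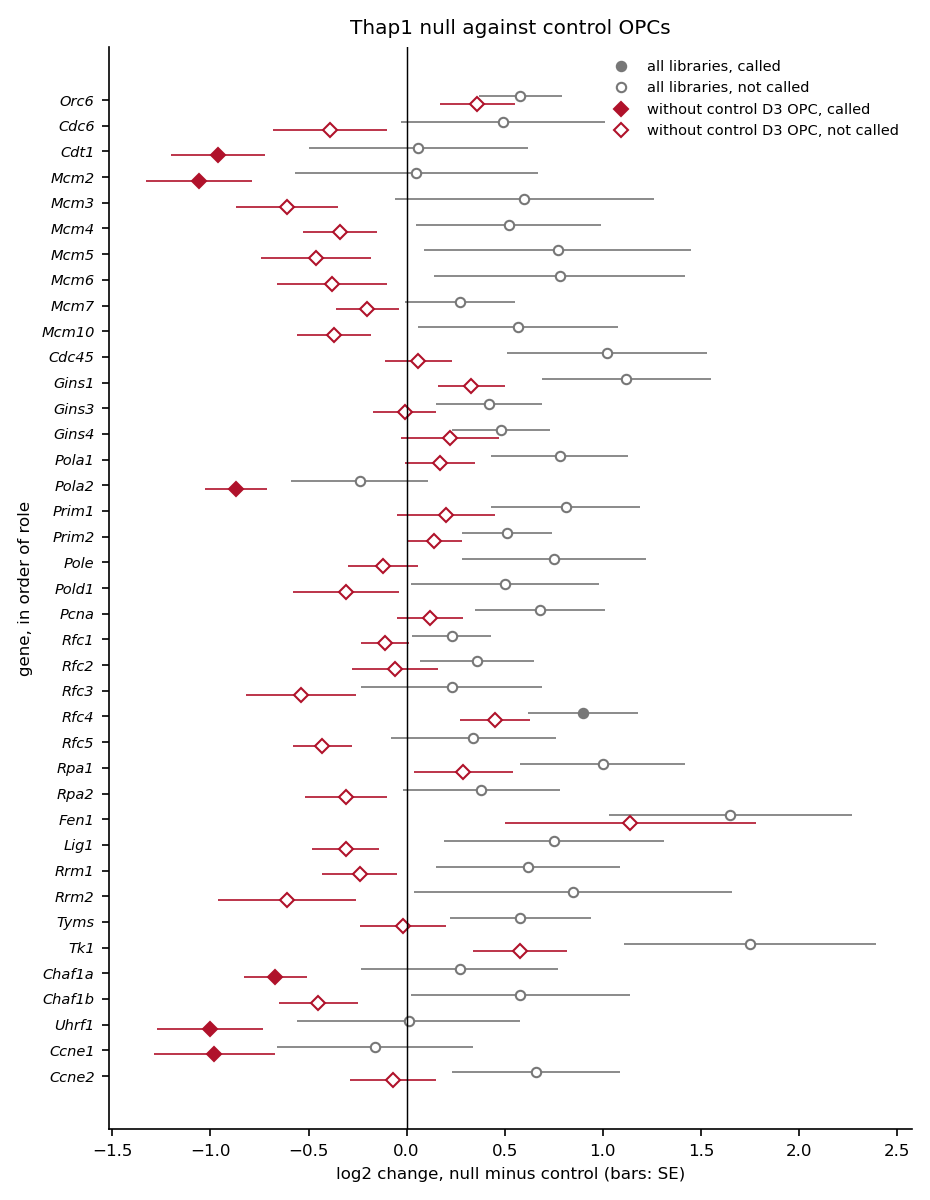
Null minus control log2 change at the OPC stage for the 39 tested genes, with standard errors, from all libraries (grey) and without control D3 OPC (red). Filled symbols passed the test. Grey symbols lie mostly above 0 with Rfc4 called, and red symbols spread around 0 with 6 genes called lower.

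At DIV2, no gene of the 39 was called between genotypes by limma, and none had an unadjusted p under 0.05 (1658 of 10408 genes did), against a background of 3.19% of genes called. Leaving out the D3 OPC library, which is not in this comparison, left the changes as they were and altered the spread shared by all groups, so that 9 of the 39 had an unadjusted p under 0.05 (2043 of 10408 genes). The median of the 39 changes was 0.22 (all genes -0.01), and 33 were above 0. Every null library was above every control library for 16 of the 42 genes and below for 1, E2f1, where the background was 16.1% and 17.1%. E2f1, and Orc1 and Gins2 among the 16, were too low to test and so are outside that background. These 16 included Cdc45, with 0.416, 0.784 and 0.726 rescaled TPM in control and 1.38, 2.16 and 1.63 in null clones. Tk1 had 0.312, 0.406 and 0.0654 in control and 0.979, 1.54 and 1.07 in null clones. Cdc45 changed by 0.73, with a limma adjusted p of 0.534 with all libraries, 0.0156 without D3 OPC (background 2.69% called higher), and 0.0156 to 0.824 over the settings. Cdc45 and Tk1 were chosen after their values were seen. A fit on only the libraries compared called 3 genes higher, Cdc45, Chaf1b and Tk1 (background 3.12%). All 3 lay under 1 rescaled TPM, the mean needed for testing, in every control DIV2 library, where Chaf1b had 0.292, 0.321 and 0.22. The 8 other cell cycle genes moved with this pattern, summing to 5.16, 11.2 and 6.32 in control and 13.3, 37.2 and 20.9 in null clones. The oligodendrocyte markers summed to 5884, 3300 and 4459 in control and 3275, 3325 and 2898 in null clones, with 4 of 8 (Mbp, Mag, Myrf and Mobp) lower in every null library. The OPC markers summed to 358, 503 and 307 in control and 226, 308 and 239 in null clones, with 2 of 7 (Olig1 and Olig2) lower in every null library. The astrocyte markers summed to 116, 277 and 176 in control and 270, 263 and 279 in null clones, with 2 of 8 (Aldh1l1 and S100b) higher in every null library. The neuron markers summed to 105, 114 and 126 in control and 66.7, 94.4 and 89.0 in null clones, with 1 of 8 (Map2) lower in every null library. The part of these lists in the pattern was not tested.

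At DIV4 the pattern lay the other way. No gene was called by limma and none had an unadjusted p under 0.05 (2293 of 10408 genes did, with 5.5% called). Leaving out D3 OPC gave 12 of the 39 (2695 of 10408 genes), and without the D3 clone 14 (2839 of 10408 genes). The median change was -0.26 (all genes -0.01), and 6 of 39 changes were above 0. Every null library was below every control library for 13 of the 42 genes (background 13.6%) and above for 1, Rfc1 (background 14.8%). Rpa2, chosen after its values were seen, had 3.73, 4.06 and 6.19 rescaled TPM in control and 2.03, 2.70 and 2.42 in null clones. Its change was -0.72, with a limma adjusted p of 0.314 with all libraries, 0.0307 without D3 OPC (background 3.85% called lower), and 0.0154 to 0.624 over the settings. Rrm2 had 2.58, 2.57 and 5.85 in control and 0.403, 1.99 and 1.54 in null clones, a change of -1.01 ± 0.81. Leaving out the control D3 clone at all stages called 5 genes lower, Gins1, Gins4, Pcna, Rfc5 and Rpa2 (background 5.26%). The 8 other cell cycle genes summed to 19.4, 20.2 and 31.9 in control and 8.52, 16.3 and 19.7 in null clones, which overlapped. Even so, 4 of the 8 (Mki67, Ccnb1, Plk1 and Bub1) were lower in every null library and 0 were higher. The OPC markers summed to 382, 499 and 460 in control and 290, 298 and 307 in null clones, without overlap, although of the 7 only Olig1 was lower in every null library. The oligodendrocyte markers summed to 11995, 2388 and 2176 in control and 1863, 2787 and 1963 in null clones, and the astrocyte markers to 96.0, 368 and 574 in control and 430, 403 and 480 in null clones, both with overlap. Of the 8 oligodendrocyte markers 2 (Mbp and Mobp) were lower in every null library, and of the 8 astrocyte markers 1 (S100b) was higher. The neuron markers summed to 111, 88.0 and 128 in control and 72.1, 99.1 and 89.1 in null clones, with overlap. The part of these lists was not tested.

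Between DIV2 and DIV4 no gene of the 39 was called by limma in either genotype, and none had an unadjusted p under 0.05 (background 0.25% called in control and 2.93% in null clones). Once D3 OPC was left out, 12 of the 39 had such a p in control clones (1507 of 10408 genes, with 1.07% called and none of the 39) and 5 in null clones (2262 of 10408 genes). There 1 was called, Pola2, which fell in null clones by 0.61 on the log2 scale (background 2.29% called lower). The median change was 0.25 in control and -0.22 in null clones. By clone, the median over the 42 genes was 0.30 in D7, 0.00 in D3 and 0.41 in E8, and -0.17, -0.24 and -0.20 in the null clones. All 3 control clones were higher at DIV4 for 19 of 42 genes (background 17.3%) and lower for 2 (background 22.1%), and all 3 null clones were lower for 28 (background 35.9%) and higher for 3 (background 30.0%). For 10 genes every control clone moved up and every null clone down, against a background of 2.35%, and for 0 the reverse, against 2.66%. These were Cdc6, Mcm10, Cdc45, Gins1, Rfc4, Rpa2, Rrm2, Tyms, Chaf1a and Chaf1b. Of them, Cdc6 and Mcm10 lay under 1 rescaled TPM in every DIV2 and DIV4 library and reached the mean needed for testing through the OPC libraries. Chaf1a and Chaf1b also averaged under 1 over the DIV2 and DIV4 libraries and reached that mean only with the OPC libraries. Their group means there were 0.723 to 1.17 for Chaf1a and 0.278 to 0.92 for Chaf1b. Cdc45 moved by 0.82, 0.29 and 0.79 in control and by -0.32, -0.39 and -0.27 in null clones. The difference between the genotypes in this step was tested as an interaction, and limma called none of the 10408 genes (0.0%), with 539 at an unadjusted p under 0.05 and none of them among the 39. With D3 OPC left out, 14 of the 39 had such a p (809 of 10408 genes, with 0.115% called and none of the 39), and without the D3 clone 19 did (1027 of 10408 genes). For Cdc45 the interaction was -0.96 ± 0.73 (adjusted p = 0.999, and 0.0782 to 1.0 over the settings).

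The most abundant genes of each role were also read at DIV4. Orc6 had 8.90, 5.67 and 10.2 rescaled TPM in control and 9.51, 6.91 and 8.0 in null clones, and Mcm7 9.23, 12.9 and 10.7 in control and 16.3, 11.8 and 15.6 in null clones. Gins4 had 18.5, 7.48 and 12.4 in control and 8.65, 10.3 and 9.24 in null clones. The genotypes overlapped for these 3 genes, with control D7 the highest library for Gins4. Prim2 had 6.67, 5.49 and 7.0 in control and 4.91, 4.71 and 5.26 in null clones, and Pcna 43.3, 28.9 and 35.7 in control and 24.9, 28.2 and 23.7 in null clones. Uhrf1 had 1.39, 1.04 and 1.92 in control and 0.239, 0.956 and 0.839 in null clones, and Rrm1 7.37, 7.35 and 11.3 in control and 5.29, 6.66 and 6.25 in null clones. For these 4 genes every null library was below every control library, without passing the test. Rpa1 had between 9.37 and 13.1 in control and 16.6, 11.8 and 14.6 in null clones, and Fen1 7.6, 1.78 and 3.36 in control and 2.61, 2.95 and 3.59 in null clones. Ccne2 had 2.13, 2.34 and 2.77 in control and 1.55, 2.29 and 1.86 in null clones. On rescaled TPM, Rfc4 was called higher in null clones at the OPC stage only with D3 kept. At DIV2 it had 2.26, 2.52 and 2.96 in control and 3.38, 5.10 and 3.87 in null clones. Its DIV4 values were 3.47, 3.08 and 4.30 in control and 2.87, 4.33 and 3.00 in null clones. These last 4 genes overlapped between genotypes at DIV4, so the separation of Rfc4 seen at OPC and DIV2 was not seen there.

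**Figure D5:**
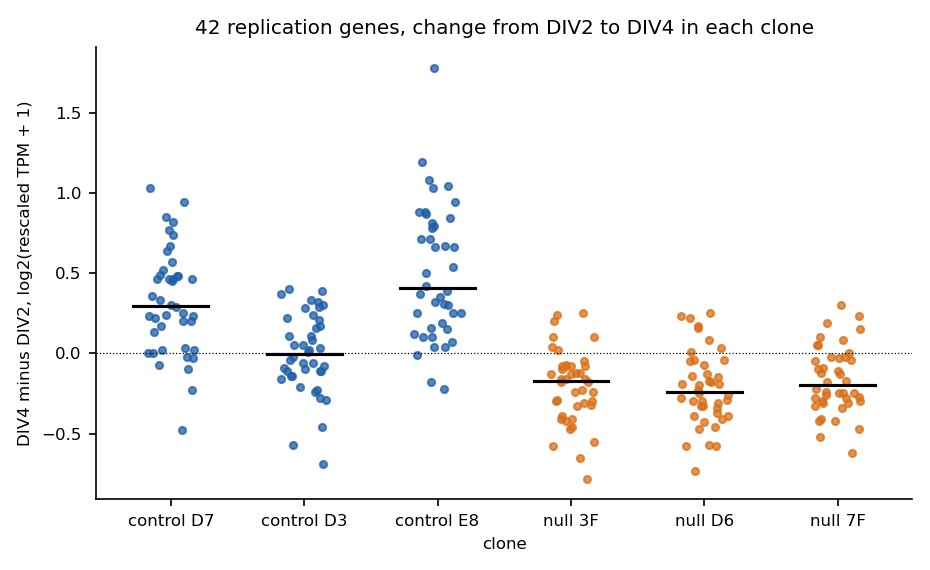
Change from DIV2 to DIV4 of the 42 genes in each clone, on the log2(rescaled TPM + 1) scale. Each point is 1 gene and each bar the median of the clone, which lies at 0.30, 0.00 and 0.41 in the control clones and at -0.17, -0.24 and -0.20 in the null clones.

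The OPC to DIV2 step was compared between genotypes in the same way. No gene of the 39 was called for the interaction by limma, 1 had an unadjusted p under 0.05, and the background was 0.279% called. The median interaction was -0.39. Without D3 OPC the median was 0.35 and 3 genes were called, with a smaller fall in null clones: Cdt1 (1.24 ± 0.32), Pola2 (1.12 ± 0.22) and Chaf1a (1.0 ± 0.21), against a background of 1.84% called higher. Over the settings the limma adjusted p ranged from 0.0303 to 0.999 for Cdt1, 0.0152 to 0.963 for Pola2 and 0.0122 to 1.0 for Chaf1a. On deposited TPM all 39 genes were called, in the other direction, where 83.3% of all genes were (median -2.06, all genes -1.68). In the second list, 4 of 53 genes were higher in null OPCs (Atr, E2f5, Orc5 and Rpa3) and none lower with all libraries, near the 5.91% of all genes called higher. Without D3, 4 were higher (Atr, E2f5, Orc4 and Orc5, background 10.5%) and 5 lower (Cdc25a, Chek1, Dnmt1, Recql4 and Timeless, background 8.78%). Rpa3, the small subunit of the complex that holds Rpa1 and Rpa2, was the only one called between genotypes at DIV4 with all libraries, lower in null clones (-0.86 ± 0.24, limma adjusted p = 0.0470, background 2.34%). Without D3 OPC, E2f5 was called lower there as well.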

How the data were processed

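RNA from 18 libraries was measured by stranded total RNA sequencing after removal of ribosomal RNA, per the labels' protocols. STAR and Picard, with the mm10 build and no version, are named in the submitters' processing notes. The program that estimated abundance and its annotation are not given in the sources used here. The authors deposited TPM per transcript for 93666 transcripts, each library summing to 1000000. TPM keeps no depth, so precision rests on 3 clones per group. Nothing says whether the clones were separate derivations, so p-values measure the spread between these clones.

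The 47103 protein-coding transcripts were summed by gene symbol and divided by median-of-ratios factors from 12319 genes above 0 in all libraries. This scale was preferred because earlier results had shown the control OPC libraries filled by noncoding features. limma 3.58.1 (R 4.3.3) fitted 6 group means over all 18 libraries to log2(value + 1), a scale that understates the change of low genes, with a mean trend and Benjamini-Hochberg adjustment over 10408 genes. The scripts were tested on simulated data. Tables and plots used Python 3.11.15, numpy 2.4.6, pandas 2.3.3 and matplotlib 3.10.9. Gene positions and 31-base words came from GENCODE M21, and a gene sharing at least 10% of its words with another is called uncertain.

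The 42 genes, their roles and the other lists were chosen with earlier results of these data known. Values in every library were to be printed for the most abundant gene of each of 10 roles, Rrm1, Thap1 and genes called between genotypes. Other genes named were chosen after their values were seen. The alternatives were deposited TPM, TPM per protein-coding total, quantile normalization, all transcripts summed, pseudocount 0.1, no or a stricter filter (mean of 5), eBayes without the trend, only the libraries compared, each clone left out, D3 OPC left out and the clone as a block. Combinations of leaving out D3 OPC with another scale were added after the data were seen. Libraries of the same clone, per the sample titles, share a clone number across stages, and their deviations from the group means correlated at 0.285 on average (0.026 to 0.653, 18 pairs), against -0.0561 for different clones.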

Additional observations from a re-analysis of the deposited data

How the results depend on the processing

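The fall of these genes from OPC to DIV2 in null clones was called for 33 to 39 genes under the alternatives other than those next (33 on deposited TPM, background 4.81% lower). A minimum mean of 5 left 21 genes to test, of which 20 were called (background 15.7% lower). Leaving out each replicate gave 19 to 39 (19 without 3F, 20 without D6, 28 without 7F, background 7.52%, 8.24% and 7.93% lower). In control clones (31) the counts were 17 at a minimum mean of 5, 5 with only the libraries compared, and 5 to 37 leaving out each replicate (9 without D7, 5 without E8, where D3 is then 1 of 2 OPC libraries). Of all genes tested, 17.4% were called lower at a minimum mean of 5 and 9.52% with only the libraries compared. The share called lower was 13.2% without D7 and 11.6% without E8. On deposited TPM 15 were called (13 higher), and 18 with D3 OPC also left out (7 higher and 11 lower, background 89.3% and 1.27%). There the control changes reversed for Orc6 (1.78 and 1.78), Mcm7 (0.96 and 0.75), Gins4 (2.15 and 2.12), Prim2 (1.76 and 1.64), Pcna (1.65 and 1.35), Rpa1 (1.44 and 1.03) and Rfc4 (0.39 and 0.20), and with D3 kept for Fen1 (1.39), Rrm1 (0.49) and Ccne2 (0.89).

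For null against control OPCs (1 called), the count was 39 on deposited TPM, 13 per protein-coding total, 0 with quantile normalization, all transcripts, a pseudocount of 0.1, no filter, no trend or only the libraries compared, and 0 to 9 leaving out each replicate (7 lower without the D3 clone, 9 higher without D7). Of all genes tested, 8.28% were called lower without the D3 clone and 11.0% higher without D7. Leaving out D3 OPC gave 6, all lower, and with deposited TPM 39, per protein-coding total 7 and with quantile normalization 6. Reversed values were, without D3 OPC or the D3 clone, then also with quantile normalization, Uhrf1 -1.0 and -1.03, Mcm2 -1.06 and -1.09, Cdt1 -0.96 and -0.98, and Chaf1a -0.67 and -0.69. Leaving out the other control clones took these up to 0.56, 0.61, 0.63 and 0.76, in that order. On deposited TPM, with and without D3 OPC, they were Pola2 1.39 and 1.09 and Ccne1 1.48 and 1.06.

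At DIV2 (0 called) 3 were called with only the libraries compared, 0 to 1 leaving out each replicate (1 higher without the D3 clone, background 1.79%), 1 without D3 OPC and 2 with quantile normalization too. At DIV4 (0) the counts were 0 to 5, 1 and 2 for the last 3 settings. For null DIV4 against DIV2 (0), 2 were called with only the libraries compared (2 lower, background 12.1%), 0 to 1 leaving out each replicate (1 lower without the D3 clone, background 3.01%), 1 without D3 OPC and 1 with quantile normalization too. For the OPC to DIV2 interaction (0), 39 were called on deposited TPM, 1 per protein-coding total, 0 to 1 leaving out each replicate, 3 without D3 OPC, and 30, 2 and 4 with deposited TPM, the protein-coding total and quantile normalization added. Of all genes tested, 82.9% were called lower on deposited TPM without D3 OPC, and 2.82% per protein-coding total with all libraries. The interaction's reversed values on deposited TPM were Cdt1 -1.24, Pola2 -1.25 and Chaf1a -1.39 (-0.94 without D3 OPC). The cause of these changes was not tested. With the clone as a replicate block, 34 genes fell in control and 39 in null clones, no call was lost and no other call of the 39 genes changed in the stage or interaction comparisons. TPM keeps no depth, so what depth limits is unknown.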
